A study of Mus musculus with 7 samples.

Results

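The noncoding RNA genes described here are the 178 symbols, of 12071 in the deposited table, whose rows all carried RefSeq identifiers of noncoding transcripts, with H19 left out. They took 194 of the table's 336 noncoding rows, and each symbol was followed through its row with the highest mean. By kind they were 25 hosts of small RNAs, 2 small structured RNAs, 59 long noncoding RNAs and 73 pseudogenes. A further 19 were noncoding in the table and are listed as coding in newer annotation. The long noncoding kind took all members that met no other definition, among them 2210015D19Rik (newer name Ube2d-ps) and readthrough transcripts of coding genes such as Lrch4-sap25. No symbol stood for a microRNA or a snoRNA itself, and the shortest member row was 276 nt, so small RNAs are seen here only through the longer transcripts that host their genes. Of the 178, 175 had a mean of at least 20 recovered reads and entered the tests.

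The cells were CCE, a mouse embryonic stem cell line kept without feeder cells on gelatin in serum medium, and ribosomal-RNA-depleted total RNA was sequenced once a day. On day 0 the medium held leukemia inhibitory factor (LIF), which keeps mouse stem cells undifferentiated, and the cells received the vehicle DMSO; on days 1 to 6 LIF was removed and retinoic acid was present at 5 µM. Each of the 7 days had 1 library, with medium changed every other day, and nothing in the labels ties a day to a culture of its own. The p-values below therefore measure the spread of these libraries around a line, not that between cultures. LIF removal, retinoic acid and time changed together and cannot be told apart.

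Many small RNAs are cut out of longer noncoding transcripts. MicroRNA precursors are cleaved from host transcripts in the nucleus, and small nucleolar RNAs (snoRNAs), which guide chemical modification of ribosomal RNA, are released from introns of host genes whose spliced RNA is often short-lived. Other long noncoding RNAs stay in the nucleus or act in cis at imprinted clusters, where only the maternal or the paternal copy is active, and processed pseudogenes are copies of mRNAs that can share sequence with their parent genes.

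Placed by GENCODE vM21, 40 microRNA genes lay on the same strand inside 10 host members. Of these genes, 39 had mature sequences in RefSeq (GRCm38.p6), and a selection is shown from the host that fell furthest, the host that rose furthest and the polycistronic Mir17hg, because the courses of these hosts differed. Capitals mark the seed, bases 2 to 8 from the 5′ end, through which a microRNA recognises its targets. D7Ertd143e, listed in the table as LOC100303645, holds genes of the miR-290 cluster, the main microRNA cluster of mouse embryonic stem cells, on chromosome 7. No sequence of miR-290 itself was among those placed in it. Of its 3′ arms in the tables, 3 carried the same seed (in GRCm38.p6, from chr7:3218968-3218989 to chr7:3220815-3220837), miR-291b-3p differed from them within the seed, and miR-293-3p carried another seed.
mmu-miR-291a-3p: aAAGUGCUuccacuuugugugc
mmu-miR-294-3p: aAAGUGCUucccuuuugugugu
mmu-miR-295-3p: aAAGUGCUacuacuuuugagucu
mmu-miR-291b-3p: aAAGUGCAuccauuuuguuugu
mmu-miR-293-3p: aGUGCCGCagaguuuguagugu
Mir17hg, listed as Mirhg1, holds the miR-17 to miR-92 cluster on chromosome 14, known for its role in proliferation. Its miR-17-5p and miR-20a-5p shared a seed that contains the same AAGUGC run as the miR-290 seeds, placed 1 base further in. Of the 71 mature sequences available for all member hosts, 6 had this run within the seed. Some arms were not available, among them miR-292a-3p of D7Ertd143e and let-7a-5p.
mmu-miR-17-5p: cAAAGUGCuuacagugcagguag
mmu-miR-20a-5p: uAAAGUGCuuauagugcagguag
mmu-miR-19a-3p: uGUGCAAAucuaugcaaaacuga
mmu-miR-92a-3p: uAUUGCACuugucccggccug
In its newer gene interval Mir100hg, listed as 2610203C20Rik, holds Mir100, Mirlet7a-2 and Mir125b-1 on chromosome 9. Neither 5′ arm shown here shares a seed with the clusters above.
mmu-miR-100-5p: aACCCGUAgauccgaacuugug
mmu-miR-125b-5p: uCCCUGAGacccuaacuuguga
The deposited values are those of host transcripts and do not measure the mature microRNAs.

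The deposited values are log2 of read numbers scaled per library, not divided by length, and the reads behind them could be recovered; a listed value of 1 read may stand for none. The trend with day was tested over days 0 to 5 with limma and called at a Benjamini-Hochberg adjusted p under 0.05 over 12016 symbols; it is given as a slope in log2 units per day with its standard error (SE). Of 175 members, 39 rose (22.3%), where 26.1% of all symbols tested rose, and 45 fell (25.7%), where 22.0% of all did. The other 91 were not called. By kind, 20 of 58 long noncoding RNAs rose and 11 fell, 11 of 72 pseudogenes rose and 25 fell, and 4 of 25 small RNA hosts rose and 8 fell. Median slopes were 0.066 log2 units per day in long noncoding RNAs, −0.078 in pseudogenes and −0.041 in small RNA hosts (0.063 after the length correction described below), beside 0.014 over all symbols. The rising share of called members was 46.4%, and it was 36.4% with median-centring (32 rising, 56 falling) and 34.9% with quantile normalization (30 rising, 56 falling); over all symbols it was 54.2%, 41.9% and 43.4%. With quantile normalization the median slope of long noncoding RNAs turned to −0.053, with 16 rising and 16 falling. Leaving out day 0 left 26 members rising and 32 falling, and leaving out day 4 left 26 and 30. Of all symbols, 1761 rose and 1633 fell without day 0 and 1841 and 1515 without day 4, against 3138 and 2647 over days 0 to 5. Without day 0 and day 4 in turn, the falls among long noncoding RNAs were 7 and 6. Among pseudogenes the rises were 6 and 7 and the falls 16 and 18. With the day 6 library in the fit, 5 members rose, where 2.56% of all symbols did, and 7 fell, where 5.17% of all did.

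Depth ran between 7194325 recovered reads (day 6) and 17923852 (day 4), and day 6 stood apart from day 5 with transcript length, so values are given with and without it. Markers of other states moved over the same days: 8 of 8 embryonic stem cell markers fell, where 22.0% of all symbols did. Their summed level was 10.07 on day 5, against 16.25 on day 0, on the log2 scale. Of the other lists, 5 of 8 extraembryonic endoderm markers, 5 of 6 fibroblast and smooth muscle markers and 3 of 6 neural markers rose, where 26.1% of all symbols did. The summed levels of these lists on day 5 were 15.89, 14.96 and 11.88, against 12.39, 9.61 and 11.16 on day 0. The endoderm sum was highest on day 3, at 17.05, and on day 6 the sums were 10.46 for stem cell, 11.93 for endoderm, 15.94 for fibroblast and 12.03 for neural markers. Over 7 libraries 6 stem cell markers fell, and no endoderm, 2 fibroblast and 1 neural marker rose. Without day 0, 1 or 4 the endoderm markers that rose were 2, 3 and 1 and the neural ones 1, 2 and 1. Every name of these lists was in the table, but none of 4 blood marker names was. In bulk RNA, fewer cells of a type and less RNA per cell cannot be told apart, and the part of these cell types in the results below was not tested.

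The host of miR-290 cluster genes fell furthest of the members tested, while Mir100hg rose. D7Ertd143e (mm9 positions here and below; NR_028425, chr7:3218784-3221015, plus strand) stood at 8.74, 6.78, 5.68, 4.16, 2.46, 1.26 and 1.46 on days 0 to 6 on the log2 scale, which is 223, 64, 29, 9, 5, 2 and 1 reads. It was lower on each day through day 5 than on the day before. Its slope was −1.48 ± 0.11 log2 units per day (SE, n = 6 libraries; limma adjusted p = 0.00192), and the call held in all 15 alternative fits that kept it. On day 5 it had 2 reads, and the log2 difference from day 0 was −7.49 (counting interval −10.54 to −5.62), an exact 95% interval that covers counting error only.

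Mir100hg (NR_015483, chr9:41389421-41400570, plus strand) ran the other way, at 3.94, 3.95, 6.55, 7.26, 8.55, 9.71 and 6.54 on days 0 to 6, or 8, 9, 53, 77, 340, 702 and 34 reads. The interval of this row is shorter than the distance between Mir100 and Mir125b-1, so the row cannot hold both. Days 0 and 1 were alike and each later day through day 5 was higher. It had a slope of 1.24 ± 0.11 (limma adjusted p = 0.00196), and on day 5 it was 54.6-fold higher than on day 0, a log2 difference of 5.77 (counting interval 4.78 to 6.99). With day 6 in the fit the slope was 0.76 and was not called (limma adjusted p = 0.103).

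The other microRNA hosts moved less. Mir22hg (listed as 2210403K04Rik), host of miR-22, rose, at 5.59, 6.24, 6.65, 7.12, 7.82, 7.41 and 6.36 on days 0 to 6, with a slope of 0.41 ± 0.079 (limma adjusted p = 0.00799). Ftx (B230206F22Rik), an X-linked transcript near Xist that holds Mir374b and Mir421, stood at 6.90, 6.74, 7.49, 7.84, 7.69, 7.82 and 5.46 and had a slope of 0.22 ± 0.067 (limma adjusted p = 0.0318), a call that was lost with median-centring, quantile normalization or the length correction and without day 0, 1, 4 or 5 (adjusted p up to 0.0972 without a day), and whose slope turned to −0.070 with day 6. Mir17hg stood at 8.41, 8.67, 8.94, 8.20, 7.78, 7.80 and 4.78; it was highest on day 2, and its slope of −0.18 ± 0.075 was not called (limma adjusted p = 0.0833). 5330434G04Rik, an X-linked host of Mir325, stood at 5.33, 6.11, 5.90, 6.35, 6.69, 6.28 and 6.67 and was not called either (limma adjusted p = 0.103). Outside imprinted clusters, 6 microRNA hosts held no snoRNA or scaRNA gene, which leaves out Snhg20 (miR-6516), given with the snoRNA hosts below. Of these 6, 3 rose and 1 fell, where 26.1% and 22.0% of all symbols did. With median-centring or quantile normalization 2 rose and 2 fell.

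**Figure D1:**
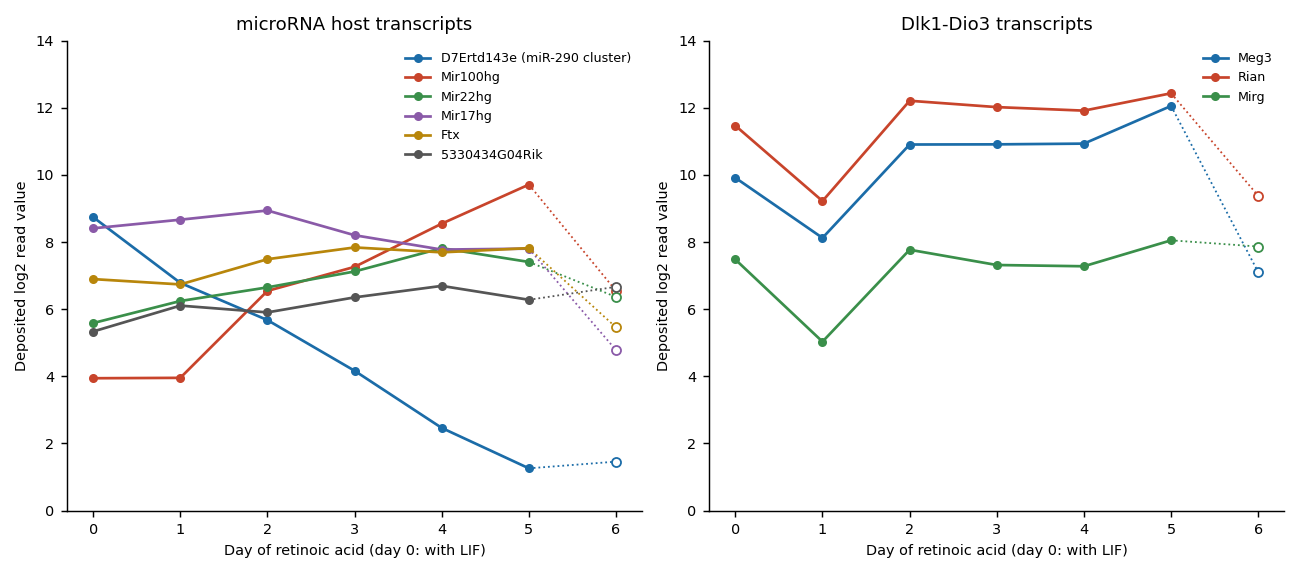
Deposited log2 read values (y axis) of microRNA host transcripts (left) and of the Dlk1-Dio3 transcripts (right) on each day (x axis), 1 library a day; open circles joined by dotted lines are day 6. D7Ertd143e falls to 1.26 on day 5, against 8.74 on day 0, Mir100hg reaches 9.71, against 3.94, and Meg3, Rian and Mirg are lowest on day 1 among days 0 to 5.

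Meg3, Rian and Mirg, maternally expressed RNAs of the imprinted Dlk1-Dio3 cluster on chromosome 12 that hold microRNA and snoRNA genes, were all lower on day 1 than on day 0 and on day 2. Meg3 (NR_027652, chr12:110779205-110809938, plus strand) stood at 9.92, 8.12, 10.91, 10.91, 10.93, 12.06 and 7.10 on days 0 to 6. Rian (NR_028261, chr12:110842154-110899919, plus strand), host of C/D snoRNAs, stood at 11.47, 9.22, 12.21, 12.02, 11.92, 12.43 and 9.38. Mirg (NR_028265, chr12:110973190-110987665, plus strand), whose interval holds 14 microRNA genes, stood at 7.48, 5.03, 7.77, 7.32, 7.28, 8.05 and 7.87. In each of the 3 the day 1 value lay below all other values of days 0 to 5. Day 1 minus day 0 was −1.79 (counting interval −2.06 to −1.53) in Meg3, −2.25 (counting interval −2.42 to −2.08) in Rian and −2.45 (counting interval −3.24 to −1.73) in Mirg, and day 2 minus day 1 was 2.78 (counting interval 2.54 to 3.03), 2.99 (counting interval 2.83 to 3.15) and 2.74 (counting interval 2.04 to 3.52) in the same order. These single-library differences exceed counting error and have no replicate check. Rian and Mirg were the 2 members at least 4-fold lower on day 1 than on day 0 (1.14% of members), where 1.03% of all symbols were. Values at least 2-fold below both day 0 and day 2 were found in 5 of 175 members (Meg3, Rian, Mirg, Neat1 and Tsix) and in 73 of 12016 symbols (0.608%).

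Among days 0 to 5 each of the 3 was highest on day 5. Meg3 had a slope of 0.55 ± 0.18 (limma adjusted p = 0.0445), but it was not called with median-centring or without day 3, 4 or 5 (adjusted p up to 0.175 without a day), and with day 6 its slope was −0.020. Rian and Mirg were not called (limma adjusted p = 0.176 and 0.322). On day 6 Meg3 (1922 nt), Rian (3598 nt) and Mirg (1305 nt) were −4.96, −3.06 and −0.19 from day 5, not in the order of their lengths.

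Genes of the protein machinery that makes and uses microRNAs did not all move in the same direction. Of 14 listed, 3 rose and 5 fell, with a median slope of −0.044 beside 0.014 over all symbols, of which 26.1% rose and 22.0% fell. With the length correction 1 rose and 9 fell, with median-centring 1 rose and 6 fell, and over 7 libraries 1 rose and none fell. Those that fell were Rnasen (Drosha, the nuclear RNase) at −0.10 ± 0.028, its partner Dgcr8 at −0.16 ± 0.030, the exporter Xpo5 at −0.19 ± 0.036, the Dicer partner Tarbp2 at −0.25 ± 0.043 and Tnrc6c at −0.13 ± 0.043. Those that rose were Prkra at 0.27 ± 0.076, Eif2c4 (Argonaute 4) at 0.40 ± 0.13 and Tnrc6a at 0.16 ± 0.048. Without single libraries Rnasen, Tnrc6c, Prkra, Eif2c4 and Tnrc6a each lost the call (adjusted p up to 0.167, 0.210, 0.143, 0.270 and 0.222), and Dgcr8, Xpo5 and Tarbp2 kept it with each of the 6 libraries left out. Without day 0, 1 or 4 none of the 14 rose, and without day 1 or 4 only 3 fell (Dgcr8, Xpo5 and Tarbp2).

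Among 14 hosts of snoRNAs and scaRNAs outside imprinted clusters, 7 fell and none rose, where 22.0% of all symbols fell and 26.1% rose. The median slope was −0.20 log2 units per day. Gas5 (NR_002840, chr1:162965296-162968668, plus strand), a host of several C/D snoRNAs whose spliced RNA is turned over by translation-dependent decay, stood at 10.81, 10.47, 10.09, 9.70, 9.40, 9.48 and 7.29 on days 0 to 6. It was lower on each day through day 4 than on the day before, with a slope of −0.29 ± 0.042 (limma adjusted p = 0.00382), and the call held in all 16 alternative fits. Snhg16 (1810032O08Rik; Snord1a, Snord1b and Snord1c) stood at 8.56, 8.38, 7.81, 7.47, 6.57, 6.75 and 6.82, with a slope of −0.42 ± 0.063 (limma adjusted p = 0.00400), and its call too held in each alternative fit that kept it.

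Snhg12, which holds 3 H/ACA snoRNA genes and Snord99, stood at 8.01, 8.11, 7.50, 7.06, 6.14, 6.47 and 8.29, with a slope of −0.40 ± 0.077 (limma adjusted p = 0.00787). Snhg8, host of Snora24, stood at 7.86, 7.69, 7.23, 7.16, 6.99, 6.56 and 9.16, with a slope of −0.25 ± 0.051 (limma adjusted p = 0.00968); its slope turned to 0.050 with day 6. Over days 0 to 5 Snhg12 was lowest on day 4 and Snhg8 on day 5, and both were highest of all on day 6. The other 3 that fell were Dancr (2700023E23Rik; Snora26) at −0.28 ± 0.067, 1110038B12Rik (Snord52) at −0.22 ± 0.047, not called with the length correction, and Snhg17 (9430008C03Rik) at −0.21 ± 0.048. Dancr lost the call without day 0 or 4 and Snhg17 without day 4 or 5 (adjusted p up to 0.0638 and 0.0585). Not called were Snhg1 at −0.12 ± 0.067, Snhg3 at −0.19 ± 0.082, Snhg6 at −0.041 ± 0.077, Snhg7 at 0.027 ± 0.12, AA465934 (Snord7) at −0.16 ± 0.067, 2410006H16Rik (Snord49a, Snord49b and Snord65) at 0.043 ± 0.054 and Snhg20 (2810008D09Rik, a scaRNA host) at 0.0041 ± 0.081.

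These rows are short, with a median of 606 nt, and short symbols in general fell more often: 267 of 793 symbols under 1000 nt fell (33.7%) and 90 rose (11.3%). After a per-library correction for transcript length, 6 of the 14 hosts fell and 1 rose (2410006H16Rik), beside 24.7% and 24.0% of all symbols. With median-centring or quantile normalization 9 fell and none rose, and over 7 libraries 2 fell and the median slope turned to 0.046. On day 6, 5 of the 14 were at least 4-fold higher than on day 5, where 7.0% of all symbols were. Of the 14, 1 was at least 4-fold lower, Gas5, of 2558 nt, where 33.2% of all symbols were. Among all symbols under 1000 nt, 65.8% were at least 4-fold higher and 0.63% lower.

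Host genes of snoRNAs often belong to the class whose RNA starts with a C in a run of pyrimidines, as ribosomal protein mRNAs do, so the start sites of the falling hosts are shown. RefSeq (GRCm38.p6) gave starts for 13 of the 14 hosts, in 16 windows of 10 bases before to 20 bases after the start, read on the gene's strand. Capitals mark a C followed by at least 4 C or T, anywhere in the window.
Gas5 (chr1:161035156-161035185, plus strand): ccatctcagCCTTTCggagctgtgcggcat
Snhg12 (chr4:132308668-132308697, plus strand): ttctcagtCCTTTCTCgcttcatccgcggt
Snhg8 (chr3:123508317-123508346, minus strand): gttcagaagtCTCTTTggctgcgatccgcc
Snhg16 (chr11:116671650-116671679, plus strand): gcgcaagcgcgatctcgtCCTTTCCgaggt
1110038B12Rik (chr17:34952449-34952478, minus strand): gcacacgggtCTCTTTgtgcacccgcccac
Dancr (chr5:74093050-74093079, plus strand): ctcggggggggggggcagctccgCCCCTCT
Such a tract stood in 10 of the 16 windows and at 9 of the 13 hosts, including 6 of the 7 that fell (not Snhg17), and in 35.8% of all 32851 windows of this length and at 39.6% of all 27025 symbols. In the Snhg16 and Dancr windows the tract begins downstream of the annotated start, so those RNAs do not start in it as annotated. The annotated starts are approximate, the other listed Gas5 start had no tract, and a match is a description of letters only.

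The mRNAs of proteins that assemble with snoRNAs fell as a group. All 12 listed snoRNP protein mRNAs tested fell, where 22.0% of all symbols did, also under median-centring, quantile normalization and the length correction. Their median slope was −0.35, beside 0.014 over all symbols. Fbl, the methyltransferase of C/D snoRNPs, had a slope of −0.39 ± 0.033, and Nop56 and Nop58, its partners, had −0.32 ± 0.036 and −0.27 ± 0.035. Dkc1, the pseudouridine synthase of H/ACA snoRNPs, had −0.54 ± 0.039, and the assembly factors Naf1 and Shq1 had −0.29 ± 0.053 and −0.51 ± 0.081. Nop10 lost the call without day 0, 1, 4 or 5 (adjusted p up to 0.163), and with day 6 in the fit 4 of the 12 fell.

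**Figure D2:**
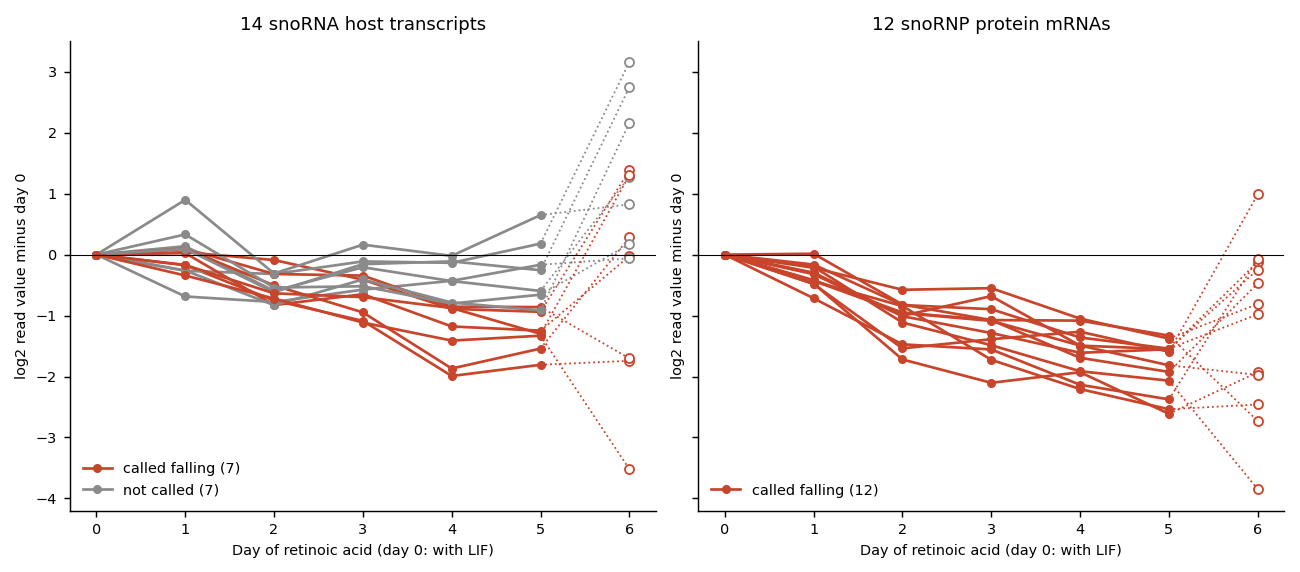
Log2 read value minus the day 0 value (y axis) by day (x axis) for the 14 snoRNA host transcripts outside imprinted clusters (left) and 12 snoRNP protein mRNAs (right); each line is 1 gene, red where limma called a fall over days 0 to 5, and open circles are day 6. The hosts fan out on day 6, where 2410006H16Rik is 3.16 above day 0 and Gas5 is −3.52 from it.

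Of the nonsense-mediated decay genes, whose pathway degrades several spliced snoRNA hosts, 5 of 12 fell and none rose, where 22.0% of all symbols fell, with a median slope of −0.076. With the length correction 8 of 12 fell, and over 7 libraries none was called. Those that fell included the helicase Upf1 at −0.26 ± 0.043, Smg5 at −0.21 ± 0.038 and the exon junction genes Eif4a3 at −0.20 ± 0.033 and Rbm8a at −0.24 ± 0.042. The Snhg14 locus of the Prader-Willi region, whose interval holds 210 snoRNA genes in GENCODE, appeared as 2 rows. C230091D08Rik stood at 8.32, 8.84, 8.91, 8.66, 9.02, 8.99 and 3.04 and D7Ertd715e at 8.70, 8.14, 8.98, 8.49, 8.95, 8.95 and 5.85 on days 0 to 6, and neither was called over days 0 to 5 (limma adjusted p = 0.133 and 0.314). Both were lower on day 6 than on every other day.

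The 2 structured RNAs peaked on day 2. Rmrp, the RNA of RNase MRP, had 8, 8, 164, 36, 16, 32 and 38 reads on days 0 to 6, and Rpph1, the RNA of RNase P, had 17, 60, 120, 19, 24, 16 and 37. On the log2 scale Rmrp stood at 3.94, 3.78, 8.17, 6.16, 4.14, 5.26 and 6.71 and Rpph1 at 5.03, 6.69, 7.72, 5.24, 4.72, 4.26 and 6.67. Both were highest on day 2, and neither was called (limma adjusted p = 0.728 and 0.280). Both had few reads, and theirs were the 2 shortest member rows, at 276 and 306 nt.

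Imprinted antisense RNAs were among the members that rose furthest. Airn (NR_002853, chr17:12934176-13008423, plus strand), the paternal RNA that silences Igf2r in cis, had 1, 3, 13, 42, 117, 162 and 22 reads on days 0 to 6 and stood at 0.94, 2.37, 4.52, 6.39, 7.01, 7.60 and 5.92. It was higher on each day through day 5 than on the day before, with a slope of 1.40 ± 0.16 (limma adjusted p = 0.00282) and a log2 difference of day 5 from day 0 of 6.66 (counting interval 4.16 to 11.97). The row covers 1178 nt of spliced RNA, and Igf2r, which runs across it on the other strand, also rose, at 13.62 on day 5, against 10.75 on day 0, with a slope of 0.60 (limma adjusted p = 0.00188). Igf2as (newer name Igf2os; NR_002855, chr7:149845597-149856261, plus strand), antisense to the growth factor gene Igf2, stood at 2.94, 5.54, 6.43, 7.83, 8.32, 8.62 and 4.78, with a slope of 1.09 ± 0.15 (limma adjusted p = 0.00354). Igf2 itself stood at 15.87 on day 5, against 6.33 on day 0, with a slope of 2.04 (limma adjusted p = 0.00192).

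Kcnq1ot1 (NR_001461, chr7:150399015-150482452, minus strand), the long unspliced RNA that silences the Kcnq1 cluster on the paternal chromosome, stood at 8.26, 8.48, 9.23, 9.59, 10.47, 10.59 and 4.78, with a slope of 0.51 ± 0.048 (limma adjusted p = 0.00204). It was higher on each day through day 5, but on day 6, with 10 reads over 83438 nt, it was lower than on any other day, and its slope with day 6 was −0.18. The library kit was stranded, with the strand setting of the counting not given in the sources used here, and so reads of a member and of its partner on the other strand cannot be told apart. In all, 57 members overlapped another listed symbol, 26 on the same strand and 33 on the opposite one.

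**Figure D3:**
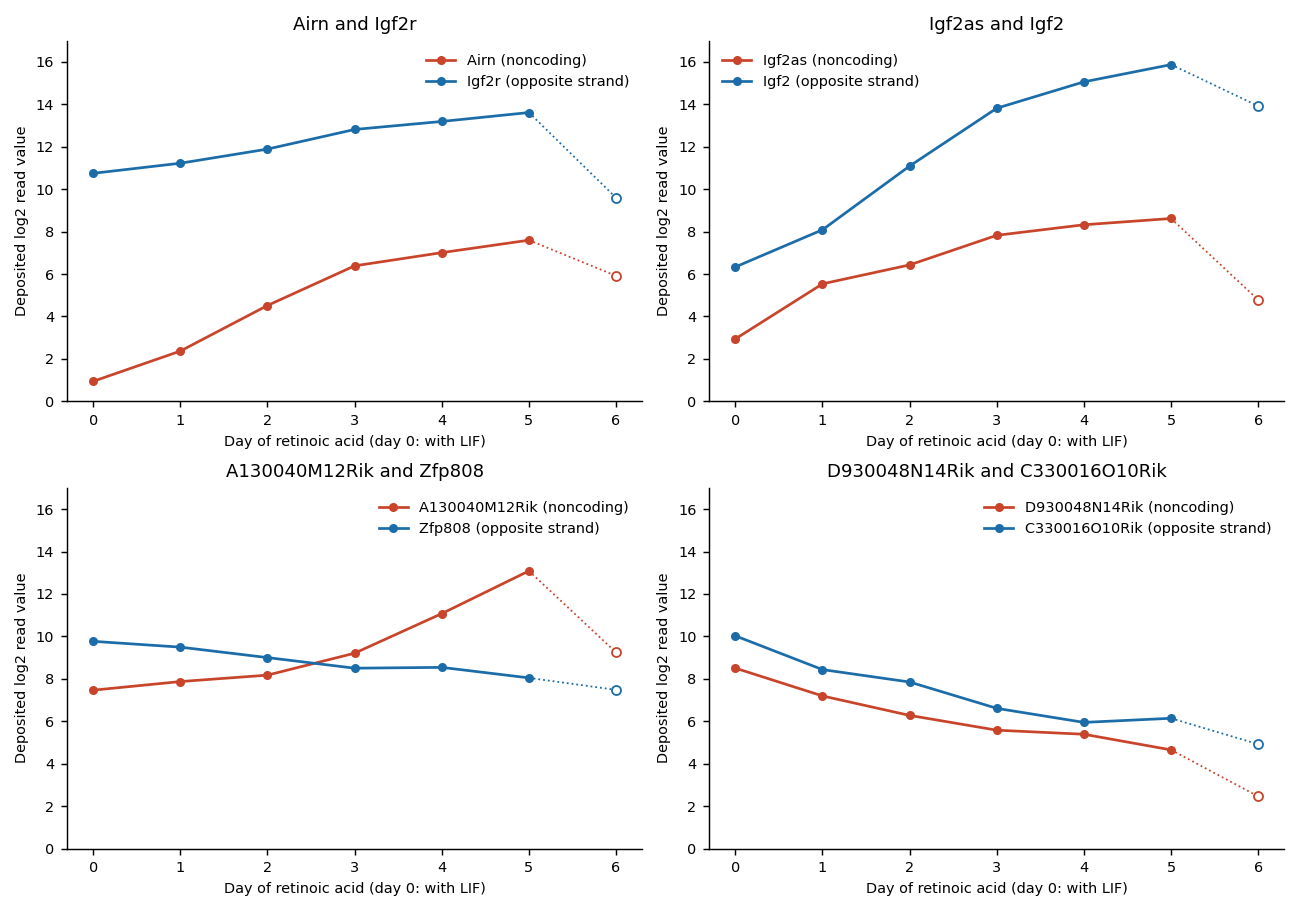
Deposited log2 read values (y axis) by day (x axis) of 4 long noncoding members (red) and the gene on the opposite strand of each (blue), 1 library a day; open circles are day 6. Airn and Igf2as rise with Igf2r and Igf2, A130040M12Rik reaches 13.09 on day 5 while Zfp808 stands at 8.05, and D930048N14Rik falls with C330016O10Rik.

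A130040M12Rik (NR_002860, chr13:62184506-62397849, minus strand), for which the table lists the endogenous retroviral element name VL30 as a synonym, rose mainly after day 3. It stood at 7.47, 7.87, 8.17, 9.21, 11.08, 13.09 and 9.25 on days 0 to 6, with its largest steps between days 3 and 5, and had a slope of 1.11 ± 0.15 (limma adjusted p = 0.00341). It had 92, 136, 164, 297, 1959, 7275 and 221 reads, and day 5 was 49.2-fold above day 0, a log2 difference of 5.62 (counting interval 5.32 to 5.93). Such repeats are present in many copies, with the counting of reads that match several places not given in the sources used here. Zfp808, a zinc finger gene overlapping it on the other strand, fell, with a slope of −0.34 (limma adjusted p = 0.00306). Hoxaas3 (2700086A05Rik), which overlaps Hoxa3 and Hoxa5 on the other strand, had 1, 8, 18, 19, 57, 70 and 142 reads and stood at 0.94, 3.78, 4.99, 5.24, 5.97, 6.39 and 8.61, with a slope of 0.97 ± 0.20 (limma adjusted p = 0.0101). Its partners stood at 10.65 (Hoxa3) and 11.44 (Hoxa5) on day 5, against 5.03 and 1.94 on day 0, and neither partner's straight line was called (limma adjusted p = 0.133 and 0.0887).

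Other long noncoding RNAs with large slopes are less well known. Foxd2os (9130206I24Rik), named for its neighbour Foxd2, stood at 2.53, 3.95, 6.28, 6.61, 6.75, 7.08 and 8.03, with a slope of 0.90 ± 0.18 (limma adjusted p = 0.00882), and was higher on each day than on the day before, day 6 included. Gm3414, overlapping Lcorl on the same strand, stood at 4.26, 4.59, 6.55, 6.61, 7.74, 7.62 and 3.04, with a slope of 0.75 ± 0.12 (limma adjusted p = 0.00444), while Lcorl had a slope of 0.022 (limma adjusted p = 0.650). D130009I18Rik was highest on day 3, at 7.47, and had a slope of 0.68 ± 0.17 (limma adjusted p = 0.0195), not called with quantile normalization or voom or without day 0 or 4 (adjusted p up to 0.0690 without a day). 4933431E20Rik, opposite the glutathione transferase gene Gstm5, stood at 3.26, 5.87, 6.57, 5.95, 6.60, 7.15 and 5.36, with a slope of 0.60 ± 0.18 (limma adjusted p = 0.0326), a call lost without day 0, 3, 4 or 5 (adjusted p up to 0.140). Abhd11os (2010001M06Rik) rose, with a slope of 0.49 ± 0.12 (limma adjusted p = 0.0173), a call lost with quantile normalization and without day 0 or 5 (adjusted p up to 0.0861 without a day), while Abhd11 on the other strand had a slope of −0.23 (limma adjusted p = 0.0685).

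Some members were called in the direction opposite to that of the gene across from them. E130317F20Rik rose, with a slope of 0.43 ± 0.080 (limma adjusted p = 0.00720), while Ptbp1, a splicing regulator gene, had a slope of −0.19 (limma adjusted p = 0.00400). D030028A08Rik rose, with a slope of 0.27 ± 0.069 (limma adjusted p = 0.0189), a call lost with quantile normalization and without day 0 or 4 (adjusted p up to 0.103 without a day), while Sp2 had a slope of −0.20 (limma adjusted p = 0.0140). Firre (6720401G13Rik), an X-linked RNA of nuclear organisation, rose with no listed partner, at 9.40, 9.61, 10.61, 10.47, 10.67, 10.97 and 6.16 on days 0 to 6, with a slope of 0.31 ± 0.059 (limma adjusted p = 0.00759). The slope of Firre changed sign with day 6 in the fit, also with the length correction added. Norad (2900097C17Rik), an RNA that binds Pumilio proteins, stood at 12.16 on day 5, against 11.17 on day 0, and at 7.87 on day 6, with a slope of 0.16 ± 0.050 (limma adjusted p = 0.0415), a call lost with median-centring or the length correction and without day 0, 4 or 5 (adjusted p up to 0.276 without a day), and with a slope of −0.32 over 7 libraries.

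The abundant nuclear RNAs Malat1 and Neat1 were lowest on day 1 among days 0 to 5. Malat1, an RNA of nuclear speckles, stood at 12.43, 11.61, 12.78, 12.85, 13.33, 13.57 and 7.78, with a slope of 0.31 ± 0.082 (limma adjusted p = 0.0215); the call was lost with the length correction and without day 4 or 5 (adjusted p up to 0.0839 without a day). Neat1, the scaffold of paraspeckles, stood at 10.01, 8.80, 10.40, 11.12, 11.20, 10.92 and 5.71 and was not called (limma adjusted p = 0.0620). Day 1 minus day 0 was −0.82 (counting interval −0.91 to −0.74) in Malat1 and −1.21 (counting interval −1.43 to −0.99) in Neat1. Tug1, a nuclear and cytoplasmic RNA that was higher on each day through day 5 than on the day before, stood at 9.98, 10.16, 10.57, 10.58, 10.96, 11.17 and 6.78, with a slope of 0.24 ± 0.033 (limma adjusted p = 0.00341). Malat1, Neat1 and Tug1 were each lowest on day 6, and their slopes over 7 libraries were −0.34, −0.28 and −0.26. Among 8 genes of paraspeckle and nuclear retention proteins, 3 fell and none rose, where 22.0% of all symbols fell, with a median slope of −0.071. With median-centring 6 fell and none rose, and with quantile normalization or voom 2 fell and 1 rose. Those that fell included Rbm14 at −0.25 ± 0.049 and Sfpq at −0.10 ± 0.033, and Sfpq was not called without day 0, 1, 3, 4 or 5 (adjusted p up to 0.156).

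The X-inactivation RNAs showed no called trend. Xist stood at 6.33, 5.37, 6.31, 6.20, 6.48, 6.07 and 3.46 and its antisense RNA Tsix at 5.94, 4.24, 5.72, 4.99, 5.23, 4.43 and 1.46 on days 0 to 6, with slopes of 0.054 ± 0.10 and −0.15 ± 0.16 (limma adjusted p = 0.685 and 0.452). Tsix had from 1 to 34 reads per library, which limits what can be seen. Pvt1, a neighbour of Myc, stood at 7.30, 6.48, 5.95, 6.16, 6.51, 6.37 and 6.82 and was not called (limma adjusted p = 0.338). H2afy3, a macroH2A-related pseudogene inside Pvt1 on the other strand, stood at 6.23, 7.95, 8.24, 7.96, 8.07, 8.20 and 8.35; its day 1 value was higher than day 0 by 1.73 (counting interval 1.21 to 2.28), and its slope was not called (limma adjusted p = 0.0963).

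Fewer long noncoding RNAs fell, and those tested and named here had their highest values on day 0. 1700001L05Rik (NR_027980, chr15:83184277-83197727, minus strand) stood at 9.47, 9.12, 7.53, 6.90, 5.97, 6.21 and 3.04, with a slope of −0.75 ± 0.10 (limma adjusted p = 0.00324). D930048N14Rik (NR_027958, chr11:51464455-51471182, plus strand) stood at 8.50, 7.19, 6.28, 5.58, 5.39, 4.65 and 2.46, with a slope of −0.73 ± 0.092 (limma adjusted p = 0.00306), and C330016O10Rik on the other strand fell too, with a slope of −0.80 (limma adjusted p = 0.00334). Both calls held in each of the 15 alternative fits that kept these members, the 7-library fit included. 2810025M15Rik and 4933404O12Rik had slopes of −0.42 ± 0.075 and −0.42 ± 0.075 (limma adjusted p = 0.00614 and 0.00618). The readthrough transcript Lrch4-sap25 had a slope of −0.37 ± 0.10 (limma adjusted p = 0.0257), a call lost without day 0, 1 or 4 (adjusted p up to 0.160), beside −0.35 (limma adjusted p = 0.0331) for Lrch4, which it overlaps. Nphs1as, antisense to the nephrin gene Nphs1, was below the read minimum and not tested; it had 115, 6, 2, 1, 1, 1 and 1 reads on days 0 to 6, and Nphs1 stood at 6.26 on day 5, against 10.95 on day 0.

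Most pseudogenes had slopes close to those of their parent genes. For 43 pseudogenes the parent, 1 of 38 genes, was found through the gene names of the deposited table and tested. The slopes of unrelated pairs were not compared. Of these pseudogenes 27 were called, and the parent was called in the same direction in 22. The 2 slopes lay within 0.1 log2 units per day of each other in 35 of 43 pairs, with a median gap of 0.025. Because 10 of the pairs overlap in the table, the 33 separate pairs are given alone: 25 lay within 0.1, with a median gap of 0.031. Near-identical copies can take each other's reads, with the handling of shared reads not given in the sources used here, so a pseudogene's own level remains uncertain. Gm15801 and Gm8783, which overlap Ptp4a1, had identical reads in all 7 libraries and are 1 measurement.

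Ribosomal protein copies fell together. Of 10 pseudogenes with a ribosomal protein parent, 9 fell and none rose, where 22.0% of all symbols fell, with a median slope of −0.16. Without day 0, 6 fell; after the length correction 5 fell, and over 7 libraries none was called and the median slope turned to 0.18. All 10 were at least 4-fold higher on day 6 than on day 5, as were 7.0% of all symbols and 65.8% of those under 1000 nt. Each of the 9 that fell had a parent that was called falling too. Gm10136 and Gm15772 share the parent Rpl26, and Gm12191 overlaps its parent Rpl30. Gm15772, which overlaps Rpl26 on the same strand, stood at 13.65, 13.29, 13.07, 13.01, 12.81, 12.88 and 15.61 on days 0 to 6, with a slope of −0.15 ± 0.034 (limma adjusted p = 0.0120), not called with the length correction or without day 0 (adjusted p = 0.0915 without it). Rps4l (listed as Rps4y2), a copy related to Rps4x with no parent found by gene name, stood at 14.12, 14.03, 12.85, 12.84, 12.40, 12.35 and 13.85. It had a slope of −0.39 ± 0.062 (limma adjusted p = 0.00452), with its largest step between days 1 and 2. Per kilobase of the row, the 4 members with the highest mean log2 levels were Gm12070, a Gapdh copy, at 14.73, Gm6548, an Eef1a1 copy, at 14.68, Gm15772 at 14.41 and Ubb-ps (Gm1821), a ubiquitin copy, at 14.19. Over the days Gm12070 fell by 0.20 and Gm6548 by 0.11 log2 units per day (limma adjusted p = 0.00763 and 0.00799), each not called without day 0 (adjusted p = 0.0608 and 0.0544) and Gm6548 not with quantile normalization, and Ubb-ps was not called (limma adjusted p = 0.0555). Gm5643, a copy of the splicing factor gene Hnrnpa1, had a slope of −0.15 ± 0.032 (limma adjusted p = 0.0107), not called with quantile normalization or without day 5 (adjusted p = 0.0538 without it).

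Among other pseudogenes, 11 of 62 rose (17.7%) and 16 fell (25.8%), where 26.1% and 22.0% of all symbols did. Npm3-ps1, a copy of the nucleolar chaperone gene Npm3, stood at 11.21, 10.61, 9.33, 9.01, 8.50, 8.62 and 10.91, with a slope of −0.56 ± 0.084 (limma adjusted p = 0.00402), and Npm3 had a slope of −0.56 as well. Gm6644, overlapping the aldose reductase gene Akr1b3 on the other strand, stood at 9.97, 9.78, 9.00, 8.05, 7.66, 7.48 and 9.00, with a slope of −0.57 ± 0.060 (limma adjusted p = 0.00248), and Akr1b3 had a slope of −0.55 (limma adjusted p = 0.00288). Mnd1-ps (Gm3833), a copy of a meiotic recombination gene, had a slope of −0.44 ± 0.086 (limma adjusted p = 0.00813). Cdk3, a kinase gene that the laboratory mouse carries as a pseudogene in newer annotation, stood at 3.53, 5.37, 6.88, 8.11, 7.89, 7.52 and 3.46, with a slope of 0.82 ± 0.19 (limma adjusted p = 0.0151), a call lost with voom and without day 0 or 4 (adjusted p up to 0.0894 without a day). Some copies parted from their parents. 6820431F20Rik and LOC547150, overlapping copies of the cadherin gene Cdh11, rose by 0.26 and 0.24 log2 units per day, beside 1.13 for Cdh11. Pisd-ps1, Pisd-ps2 and Pisd-ps3 rose, at 0.30 ± 0.052, 0.23 ± 0.064 and 0.31 ± 0.053, while Pisd, a phospholipid enzyme gene, had a slope of −0.14 and was not called. Pisd-ps1 and Pisd-ps3 share nearly the same interval and overlap Sfi1 on the other strand, which rose too, with a slope of 0.39 (limma adjusted p = 0.00640), and Pisd-ps2 lost the call with quantile normalization and without day 0, 4 or 5 (adjusted p up to 0.136 without a day). Over 7 libraries the slopes of these 3 copies were −0.11, −0.10 and −0.12. 2210409E12Rik, a copy of the elongin gene Tceb2, rose by 0.41 per day while Tceb2 fell by 0.12, and lost the call without day 0 (limma adjusted p = 0.0594).

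**Figure D4:**
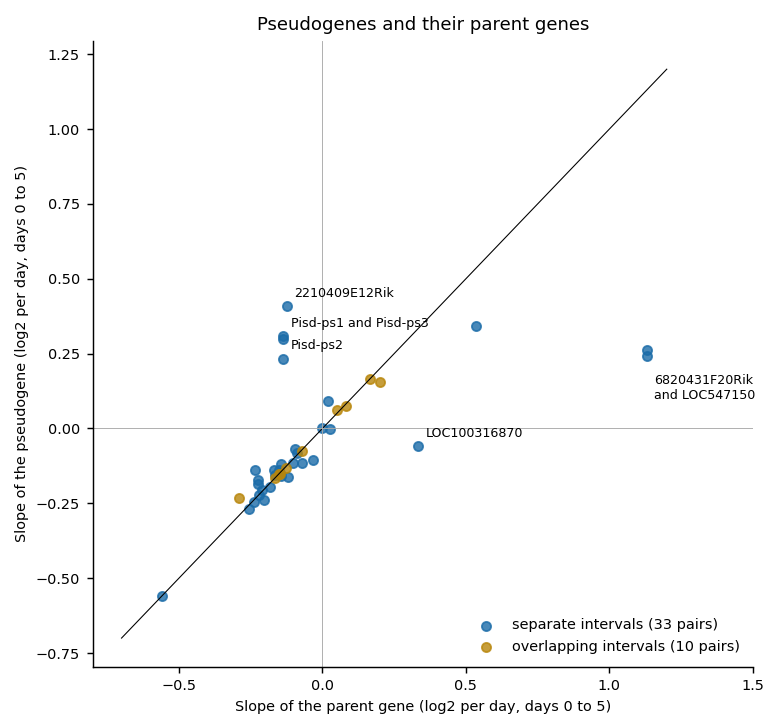
Slope over days 0 to 5 of 43 pseudogenes (y axis) against the slope of the parent gene (x axis), both in log2 units per day; the line marks equal slopes and colours show whether the 2 intervals overlap. Points lie near the line in 35 pairs, within 0.1, and the Pisd copies and 2210409E12Rik lie above it.

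Of the members listed as coding in newer annotation, 4 of 18 rose (22.2%) and 1 fell (5.56%), where 26.1% and 22.0% of all symbols did. Their median slope was 0.037, and it turned to −0.010 with median-centring and −0.043 with quantile normalization. The one that fell, 1500011K16Rik (Mtln), encodes a mitochondrial micropeptide, with a slope of −0.29 ± 0.075 (limma adjusted p = 0.0211), and lost the call without day 0, 1 or 4 (adjusted p up to 0.101). Those that rose were 2210013O21Rik (Nbdy, a decapping-associated micropeptide) at 0.26 ± 0.058, 5430417L22Rik (Inafm2) at 0.48 ± 0.10, 3110048L19Rik (Zfp942) at 0.32 ± 0.061 and 2610001J05Rik at 0.14 ± 0.038. Nbdy lost the call without day 0 or 5, Inafm2 without day 0 and 2610001J05Rik without day 0, 4 or 5 and with median-centring or quantile normalization.

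By size alone, with no test, members far from day 0 were as follows. On day 1, 3 members were at least 4-fold higher (1.71%), where 2.21% of all symbols were: Hoxaas3, 4933431E20Rik and Igf2as. On day 5, 17 were at least 4-fold higher (9.71%), where 12.8% of all were, and 13 of these were long noncoding RNAs. On day 5, 6 were at least 4-fold lower (3.43%), where 4.53% of all were: D7Ertd143e, D930048N14Rik, 1700001L05Rik, Npm3-ps1, Gm6644 and Mnd1-ps. On day 6, 34 were at least 4-fold higher and 38 lower than on day 0 (19.4% and 21.7%), where 9.59% and 26.9% of all symbols were. The median difference from day 0 was 0.035 on day 5 and 0.059 on day 6 over the members, beside 0.14 and −0.71 over all symbols.

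Day 6 sorted the members by length. Day 6 minus day 5 had a Spearman rho of −0.76 with transcript length over 175 members and of −0.71 over all 12016 symbols; genes of 1 library share its depth, so no p is given. The 45 members under 1000 nt had a median difference of 2.32, with 28 at least 4-fold higher than on day 5, and the 49 members of 3000 nt or more had one of −2.74, with 33 at least 4-fold lower. All symbols had medians of 2.30 under 1000 nt and −2.25 from 3000 nt. The largest differences from day 0 on day 6 followed this order in part. LOC100042049, a copy of Rpl22l1 of 811 nt, stood at 12.74 on day 6, against 8.15 on day 0, and 4930474M22Rik, of 616 nt, at 8.40, against 4.26. AI414108, of 4858 nt, stood at 2.46 on day 6, against 8.70 on day 0. None of the 3 was called over days 0 to 5.

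**Figure D5:**
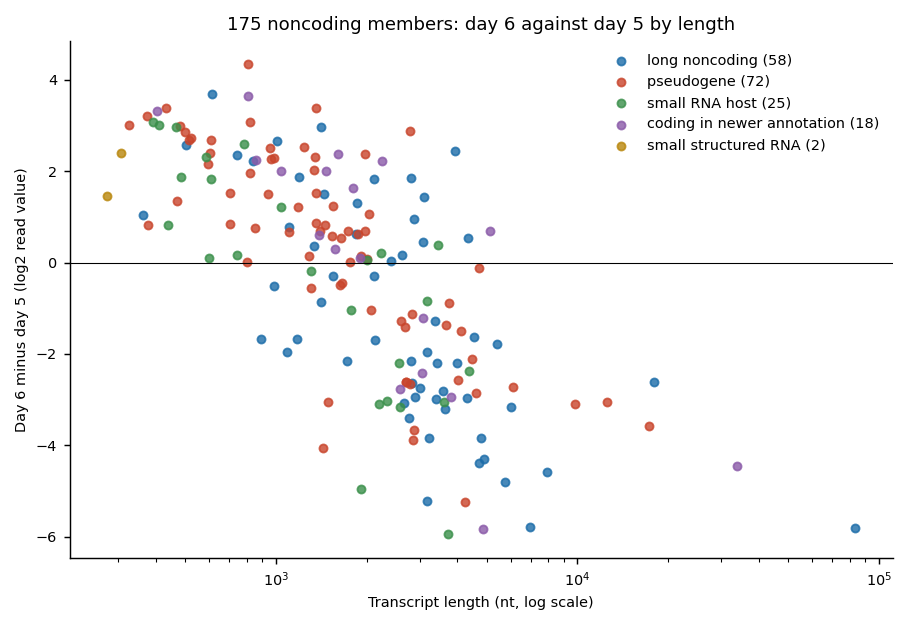
Day 6 minus day 5 on the log2 scale (y axis) against transcript length in nt (x axis, log scale) for the 175 members tested, coloured by kind. Members under 1000 nt lie around a median of 2.32 and those of 3000 nt or more around −2.74.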

How the data were processed

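CCE mouse stem cells were sampled once on each of 7 days, and rRNA-depleted total RNA was sequenced with a stranded kit, per the labels' protocols. The aligner BWA 0.7.3 and the build mm9 come from labels, per the submitters' processing notes. Which counting tool, strand setting, annotation version and scaling were used was not given in the sources used here. Log2 values were deposited by the authors, 1 per transcript and library. All values of up to 1000 reads are within 0.05 of a whole number of reads times 1 factor per library, so reads were recovered; each listed transcript has at least 1 read in every library and a HomoloGene number.

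A symbol was a noncoding member if each of its rows had an NR_ identifier, with H19 left out, and its row with the highest mean was used. Kinds came from the RefSeq table of GRCm38.p6, in which 174 of 178 members were matched, and from GENCODE vM21 small RNA genes lying within a member on its strand. Members and lists were chosen with earlier results of these data known. Symbols with a mean of at least 20 recovered reads were tested with limma 3.58.1 (R 4.3.3; trend, 4 residual degrees of freedom, Benjamini-Hochberg over 12016 symbols) on the deposited log2 values of days 0 to 5. Day 6 was left out of this fit and used in an alternative. Differences between single days have no test; their 95% intervals are exact Clopper-Pearson intervals of the recovered reads, without molecular identifiers, and cover counting error only. The scripts were tested on simulated data. Tables and plots were made with Python 3.11.15, pandas 2.3.3, numpy 2.4.6, scipy 1.17.1 and matplotlib 3.10.9.

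Members named were up to 12 with the largest called slopes each way that kept their sign with each library left out, the 6 furthest from day 0 each way on days 1, 5 and 6, the 5 with the highest mean, the small structured RNAs, 22 fixed examples that were listed, and up to 4 called genes per list. Other small RNA hosts and other members and list genes were named after their values were seen. The alternatives were all 7 libraries, other filters, median-centring, quantile normalization, a pseudocount of 1 read, a loess correction for transcript length per library, the longest row per symbol, limma voom on the recovered reads, a fold limit of 2 in place of 4 and leaving out each library.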

Additional observations from a re-analysis of the deposited data

How the results depend on the processing

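No paired analysis was possible because each day had 1 library and no replicate numbers were shared between days. With no filter, a pseudocount of 1 read, the longest row per symbol or limma voom, the counts of rising and falling members stayed within 1.5 times those reported. With all 7 libraries 5 members rose and 7 fell, all of them among the 39 and 45 called without day 6. Of all 12016 symbols 308 rose and 621 fell in that fit. With the length correction added, an alternative chosen after seeing the data, 12 members rose and 17 fell, beside 1239 and 1345 of all symbols. With the 40th percentile filter, which left 65 members tested, 14 rose and 26 fell, beside 1858 and 1943 of 7242 symbols. Leaving out 1 library gave 26 to 41 rising and 30 to 48 falling members. Over all symbols the same fits gave 1761 to 3380 rising and 1515 to 2669 falling.

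Counts of members at least 4-fold from day 0 moved with the scaling. Under quantile normalization 0 were higher and 4 lower on day 1, 11 higher and 14 lower on day 5, and 24 lower on day 6. Of all 12016 symbols, 148 were then higher and 148 lower on day 1, 1135 and 789 on day 5, and 1609 lower on day 6. Under median-centring 11 were lower on day 5 and 60 higher on day 6, and with the length correction 19 were higher on day 6. Of all 12016 symbols, 725 were lower on day 5 and 2319 higher on day 6 under median-centring. With the length correction 1487 of all symbols were higher on day 6. Under the 40th percentile filter 0 were higher and 1 lower on day 1, 3 higher and 2 lower on day 5, and 12 higher and 15 lower on day 6. At 2-fold the counts were 13 higher and 11 lower on day 1, 40 and 32 on day 5, and 62 and 60 on day 6. Counts over all symbols under this filter or at 2-fold are not given here, so these member counts have no background beside them.

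Of 34 called slopes of members named by the rule above, 11 were called in the same direction over all 7 libraries, 15 were not called and 8 changed sign. The slopes that changed sign were those of Ftx (B230206F22Rik; −0.070), Gm15772 (0.17), Gm6548 (0.010), Kcnq1ot1 (−0.18), Malat1 (−0.34), Meg3 (−0.020), Snhg8 (0.050) and Tug1 (−0.26). With the length correction added, those of Gm6548 (0.036), Malat1 (−0.12), Meg3 (−0.0075) and Tug1 (−0.077) did. Called members named outside the rule are not in these counts. Among them, the slopes of Firre, D030028A08Rik, 1110038B12Rik, 3110048L19Rik (Zfp942), Norad, 6820431F20Rik, LOC547150 and the Pisd copies also changed sign over all 7 libraries. The cause was not tested, though day 6 minus day 5 moved with transcript length. Members with few reads, such as Airn on day 0 and D7Ertd143e on day 5, are limited by counting, and 1 library a day leaves single-day differences without a replicate check.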
